A study of Homo sapiens with 4 samples.

Results

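The genes examined are those of the NRF2 pathway for which transcripts were taken by symbol from the deposited count table: NFE2L2, which encodes the transcription factor NRF2, KEAP1, its inhibitor, and 7 genes that NRF2 is known to control, HMOX1, NQO1, GCLM, GCLC, SRXN1, SLC7A11 and OSGIN1. Every transcript of these 9 genes was included, which gave 62 transcripts of 227368 listed. The RNA came from H1299, a widely used human line of non-small-cell lung carcinoma derived from a lymph node metastasis. One group was treated with 5 μM HgCl2 for 48 h, and the control group received the EtOH solvent without HgCl2, although the treatment text of the labels names 5 μM HgCl2 for all 4 samples. The comparison asks how exposure to inorganic mercury changed these transcripts. Each group has 2 columns of values, labelled replicates 1 and 2, and no genotype or other agent differs between the groups.

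In unstressed cells, KEAP1 binds NRF2 and delivers it to a ubiquitin ligase, so that NRF2 is degraded in the proteasome. Electrophiles and metals that bind thiol groups modify cysteines of KEAP1, NRF2 then escapes degradation, enters the nucleus, pairs with a small MAF protein and binds antioxidant response elements in the promoters of its targets. NRF2 is therefore mainly controlled as a protein, and its mRNA need not change when it is active. Its targets supply glutathione, reduce quinones and peroxides, break down haem and export conjugates. In lung carcinoma this pathway is often switched on by mutations of KEAP1 or NFE2L2.

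The total counts were 5051958 and 5053120 for EtOH and 4722772 and 4720978 for HgCl2. Within a group, the columns differed less than sampling noise allows for independent libraries. The variance of their difference was 0.505 of that expected from counting in EtOH, over 12382 transcripts, and 0.516 in HgCl2, over 10611, against 31.9 between the groups. Each group was therefore treated as 1 sample whose value is the mean of its columns, and no p-value is given. Intervals are 95% Clopper-Pearson intervals that cover counting error only, and called means at least 2-fold different. Where the text says that groups do not overlap, this compares them with the spread between such columns, which is no measure of biological spread. It refers to counts before scaling. The share of all tested transcripts without overlap was not computed, so a lack of overlap does not single out these genes. Reads are not unique molecules, since no molecular identifiers were used. Of markers for H1299 cells, the mean count of VIM was 624 in EtOH and 506 in HgCl2 and that of KRT18 was 23.5 and 24.5, while KRT8 had 55.5 and 4.0 and EPCAM had 0. Of markers for other cells, PTPRC, CD3E and ALB had 0 counts, and PECAM1, COL1A1 and COL3A1 between 0 and 18 in any column.

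The counts of these genes lay on a small number of bases. Counting per transcript left few reads on bases that several transcripts share: 98.3% of all counts lay on transcripts with at least 1 base that no other listed transcript covers (an unshared base, computed from the GENCODE 44 annotation of GRCh38), and of the transcripts with no such base 1.71% had any count. Of the 62 transcripts, 18 had a count in any column and 44 had 0 in all 4. Of the 25 without an unshared base 2 had a count, and of the 21 with at least 150 unshared bases 12 had one. A count of 0 here therefore does not show that a gene is silent. The upper limit for a count of 0 is 3 counts, or 0.594 CPM in EtOH and 0.635 CPM in HgCl2, for the reads that could be assigned. Less RNA per cell and fewer cells with a transcript cannot be told apart in these bulk samples.

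**Figure D1:**
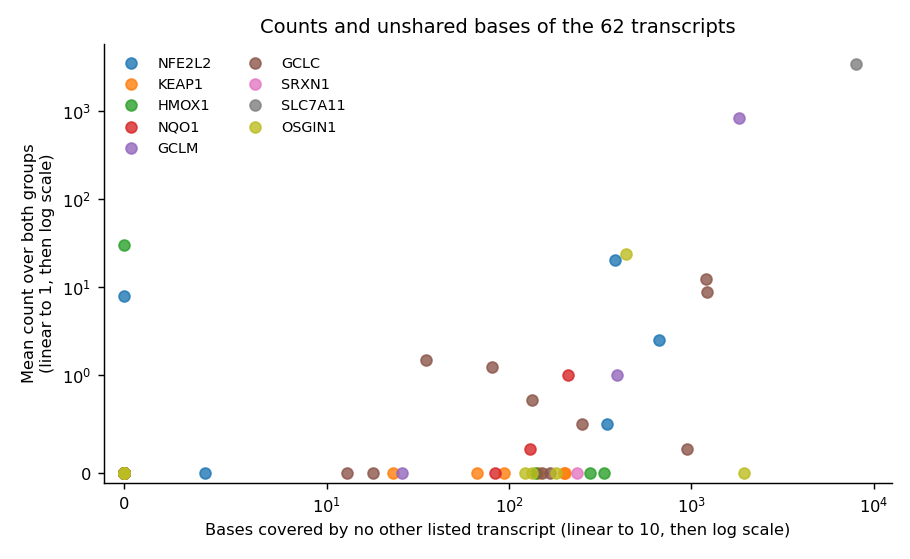
Mean count over both groups (vertical axis, linear to 1 and then log scale) against the number of bases that no other listed transcript covers (horizontal axis, linear to 10 and then log scale) for the 62 transcripts, 1 point each, coloured by gene. SLC7A11-201 with 7983 unshared bases and GCLM-201 with 1835 stand above all others in counts, and most of the remaining points lie at 0.

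The sequences below show where the promoters hold letters that NRF2 is known to bind. Promoters were taken from the RefSeq table for GRCh38.p14, as the 250 bases before each start site. Of the 9 genes, 7 had an entry, with 9 promoters in all, while HMOX1 and SLC7A11 had none. The core of the antioxidant response element, TGACNNNGC on either strand, was found in 2 of the 9 promoters, which belong to GCLM and KEAP1. It was found in 10.9% of 35116 promoters of the table. The AP-1 site, TGACTCA on either strand, which is also part of many antioxidant response elements, was found in OSGIN1 and in 4.20% of the promoters. A match is a description of the letters and was not tested for binding here. Sequence further from the start sites was not searched, so a promoter without a match does not show that the gene lacks the element.

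The GCLM promoter, chr1:93909431-93909680 on the minus strand, is printed 5′ to 3′ on the gene's strand because it belongs to a transcript with high counts. The capitals mark the antioxidant response element core, here read on the opposite strand, 25 bases before the start site. The OSGIN1 promoter, chr16:83952990-83953239 on the plus strand, is printed because it ends at the base before the start of the only OSGIN1 transcript with counts. The capitals mark the AP-1 site at chr16:83953143-83953149, 90 bases before the start site.
GCLM promoter: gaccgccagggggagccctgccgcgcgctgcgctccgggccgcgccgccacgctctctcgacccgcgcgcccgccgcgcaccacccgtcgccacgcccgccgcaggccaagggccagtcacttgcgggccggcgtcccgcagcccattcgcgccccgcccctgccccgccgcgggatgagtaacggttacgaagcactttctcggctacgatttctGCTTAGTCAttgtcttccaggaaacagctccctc
OSGIN1 promoter: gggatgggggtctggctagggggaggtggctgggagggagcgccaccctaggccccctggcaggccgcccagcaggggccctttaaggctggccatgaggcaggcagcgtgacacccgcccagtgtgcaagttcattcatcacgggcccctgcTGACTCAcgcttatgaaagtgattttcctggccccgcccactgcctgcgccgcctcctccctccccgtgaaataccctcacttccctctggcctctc

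The windows of 29 bases around the core in GCLM and KEAP1 are set beside those in 3 other genes of the pathway with counts, each printed in the direction of the core and with the core in capitals. The 3 genes were chosen as examples after their values were seen. GCLM and one of the 2 cores of KEAP1, the one printed, have the same letters, and ME1 and SLC3A2 share one that also contains the AP-1 site. The positions are chr1:93909456-93909464 for GCLM, chr19:10502794-10502802 for KEAP1, chr1:10398863-10398871 for PGD, chr6:83431180-83431188 for ME1 and chr11:62881662-62881670 for SLC3A2.
GCLM: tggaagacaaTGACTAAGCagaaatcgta
KEAP1: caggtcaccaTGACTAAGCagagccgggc
PGD: agcacctagaTGACATTGCcccggcgagg
ME1: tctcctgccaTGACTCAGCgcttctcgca
SLC3A2: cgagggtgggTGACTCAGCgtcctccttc
Genes with a core in the promoter did not move alike. On the log2 scale of summed counts, HgCl2 against EtOH, the difference was 0.58 for GCLM, 0.11 for ME1, -0.10 for PGD and -1.63 for SLC3A2, and KEAP1 had no counts. IDH1, LUCAT1 and RBX1, with a core that is not printed, stood at 0.16, 0.46 and -3.10. Most counts of SLC3A2 and many of RBX1 lay on retained-intron transcripts, so their values do not describe coding mRNA alone.

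After HgCl2, SLC7A11 and GCLM, which serve glutathione synthesis, were about 1.5-fold higher once the libraries were scaled, HMOX1 and NFE2L2 had fewer, a short transcript of OSGIN1 was far higher, and KEAP1 and SRXN1 had no counts in either group. SLC7A11-201 and GCLM-201 together held 96.4% of the counts of the 9 genes in EtOH and 98.1% in HgCl2. Differences were computed with edgeR over the 17547 transcripts whose mean FPKM exceeded 1 in either group, and 9 of the 62 transcripts passed this filter. Of these 9, 3 were called higher (OSGIN1-205, GCLC-209 and GCLC-210) and 4 lower (NFE2L2-204, NFE2L2-207, NFE2L2-210 and HMOX1-201). The background was wide: 19.2% of all tested transcripts were called higher and 34.1% lower. The filter admits a transcript through the group in which it is high, and 5 of the 9 had a group at or under 3 counts, so the counts of calls are no support for a response of the genes. The median log2 fold change of the 9 was 0.54, the value of SLC7A11-201, and that of all tested transcripts was -0.21. This median depends on the same filter. It was 0.14 with groups under 3 counts set to 3, and -0.72 over the genes' transcripts with any count. The median is therefore no support for a shift of the genes either. With a filter of at least 10 counts in every column, SLC7A11-201 and GCLM-201 were left and neither was called, against 11.0% called higher and 12.6% lower of 8720 transcripts.

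**Figure D2:**
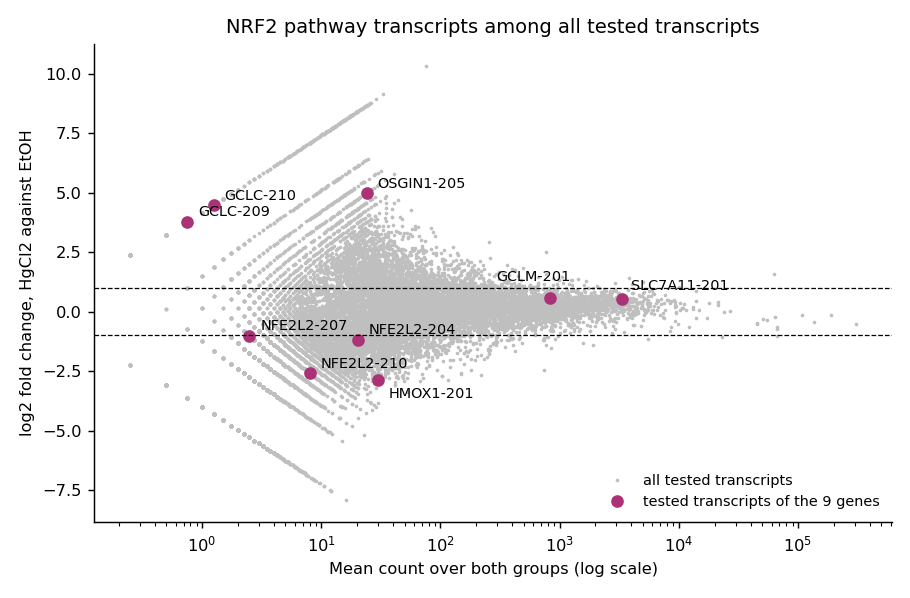
Log2 fold change of HgCl2 against EtOH from edgeR (vertical axis) against the mean count over both groups (horizontal axis, log scale) for the 17547 tested transcripts in grey and the 9 tested transcripts of the NRF2 pathway genes in purple. Dashed lines mark a 2-fold difference, and SLC7A11-201 and GCLM-201 lie inside them at high counts while the 7 others lie outside them at low counts.

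NFE2L2 (ENSG00000116044, chromosome 2, minus strand) encodes NRF2. Its 12 transcripts summed to 45 and 48 counts in EtOH and 20 and 12 in HgCl2. Both HgCl2 values lay below both EtOH values. The summed count was 2.63-fold lower in HgCl2 (95% interval 1.46 to 4.98), or -1.40 on the log2 scale. Of the 12 transcripts 8 had no count, and nearly all counts lay on 2 transcripts annotated as retained introns. NFE2L2-204 (chr2:177230417-177263537) had 26 and 32 counts in EtOH and 15 and 8 in HgCl2, 2.28-fold lower (1.12 to 4.99). NFE2L2-210 (chr2:177230435-177263537) had 15 and 13 counts in EtOH and 3 and 1 in HgCl2, 6.34-fold lower with an interval of 1.46 to 57.5. The coding transcripts contributed 4 and 3 counts in EtOH and 1 and 2 in HgCl2 on NFE2L2-207, and 0 and 0 against 1 and 1 on NFE2L2-202. By this annotation, few of the values describe the mature mRNA of the gene. The lengths implied by the deposited FPKM differ from those of GENCODE 44 for all 4 counted NFE2L2 transcripts. They are 1382 implied against 3325 annotated bases for NFE2L2-204, and 930 against 3589 for NFE2L2-210. The annotated positions and types are thus those of the later release, and whether the counted models held an intron is unknown. A long non-coding gene on the same strand, ENSG00000213963, shares 1157 exonic bases with NFE2L2 and had 60, 52, 62 and 63 counts in the same order of columns.

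KEAP1 (ENSG00000079999, chr19:10486125-10503558, minus strand), the adaptor that brings NRF2 to its ubiquitin ligase, had 0 counts in all 4 columns over its 10 transcripts. Its transcripts overlap closely, with at most 202 unshared bases in any of them. Its level was not measurable in this table, and the groups could not be compared for KEAP1.

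SLC7A11 (ENSG00000151012, chr4:138164097-138242349, minus strand) encodes xCT, the transport subunit of the antiporter that imports cystine, the source of cysteine for glutathione, in exchange for glutamate. SLC7A11-201 had 2890 and 2915 counts in EtOH and 3826 and 3820 in HgCl2. Both HgCl2 values were above both EtOH values. The count was 1.45-fold higher in HgCl2 (1.39 to 1.53), or 0.54 on the log2 scale with an interval of 0.47 to 0.61. The deposited FPKM was 54.8 in EtOH and 90.2 in HgCl2, as means of the columns. Of its 9645 bases 7983 are unshared, and the longest run, 4620 bases at chr4:138164097-138168716, lies in the 3′ untranslated region. Its level per length was 364 counts per kilobase of unshared sequence in EtOH and 479 in HgCl2. The other transcript, SLC7A11-202, has no unshared base and had 0 counts. The antisense gene SLC7A11-AS1, which shares 865 bases with it, had 1, 1, 0 and 0 counts in the order EtOH 1, EtOH 2, HgCl2 1 and HgCl2 2, and the strand setting of the counting was not given in the sources used here.

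GCLM (ENSG00000023909, chr1:93885199-93909456, minus strand) encodes the modifier subunit of glutamate-cysteine ligase, the first and limiting enzyme of glutathione synthesis. GCLM-201 had 721 and 700 counts in EtOH and 972 and 955 in HgCl2. The groups did not overlap. The count was 1.5-fold higher in HgCl2 (1.36 to 1.65), or 0.58 on the log2 scale with an interval of 0.44 to 0.72. The deposited FPKM was 26.5 in EtOH and 44.9 in HgCl2. The 1835 unshared bases, chr1:93885199-93887033, lie in the 3′ untranslated region, and the level was 387 counts per kilobase of them in EtOH and 525 in HgCl2. Per kilobase of unshared sequence GCLM-201 and SLC7A11-201 had similar levels in EtOH, 387 and 364, whereas their FPKM, which use the full length, were 26.5 and 54.8. Which bases received reads is not known, so neither measure settles how the 2 levels compare. GCLM-202 had 1 count in each column and the other 2 transcripts had none.

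The differences of SLC7A11 and GCLM were moderate beside those of other transcripts of high count. Of the 2712 tested transcripts that averaged 200 counts or more over both groups, 4.65% were called higher and 2.03% lower, and neither SLC7A11-201 nor GCLM-201 was called. In this set 18.7% had a larger log2 fold change than GCLM-201 and 21.8% a larger one than SLC7A11-201. The median of the set was 0.21, so part of each difference depends on the scaling of the libraries. Under the scalings tried, the median ran from 0.03 to 0.37, GCLM-201 from 0.41 to 0.74 and SLC7A11-201 from 0.37 to 0.71. Relative to the median, GCLM-201 lay 0.37 above it and SLC7A11-201 0.33 above it, with ranges of 0.35 to 0.39 and 0.32 to 0.34 over the scalings and left-out columns.

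**Figure D3:**
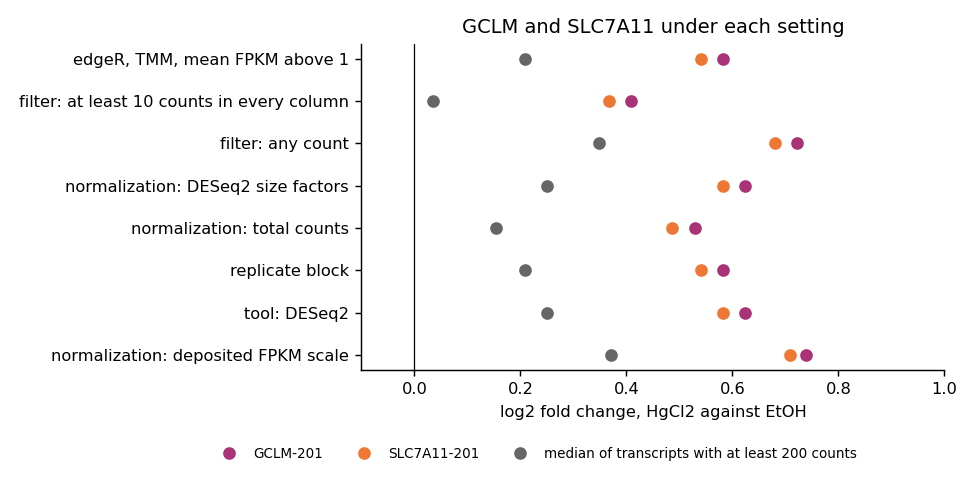
Log2 fold change of HgCl2 against EtOH (horizontal axis) for GCLM-201, SLC7A11-201 and the median of the 2712 transcripts with at least 200 counts, under each filter, scaling and tool (vertical axis). The 3 points move together, and both transcripts lie to the right of the median under every setting drawn.

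GCLC (ENSG00000001084, chr6:53497341-53616970, minus strand) encodes the catalytic subunit that GCLM binds. Its 14 transcripts summed to 27 and 29 counts in EtOH and 26 and 20 in HgCl2. The raw counts of the groups did not overlap, but the HgCl2 libraries were smaller. After scaling, the difference was within counting error, -0.14 on the log2 scale with an interval of -1.0 to 0.71. This interval includes the values of GCLM and SLC7A11. The summed FPKM went the other way, with 2.08 and 2.22 in EtOH and 4.31 and 2.82 in HgCl2. GCLC-205 had 16 counts in each EtOH column and 9 in each HgCl2 column, -0.69 on the log2 scale (-2.05 to 0.58), with a run of 1198 unshared bases in its 5′ untranslated region at chr6:53509251-53510448. GCLC-208, a shorter coding transcript, had 6 and 9 counts in EtOH and 12 and 8 in HgCl2, 0.56 on the log2 scale (-0.96 to 2.14). GCLC-209 and GCLC-210, which were called higher, had 0 counts in EtOH and at most 3 in HgCl2, so no fold is given. The level of GCLC-205 was 13.4 counts per kilobase of unshared sequence in EtOH, against 387 for GCLM-201. The longest unshared run of GCLC-205 lies in an intron of 5 of the gene's 7 other coding transcripts, and so does that of GCLC-208. These values therefore do not compare the mRNA levels of GCLC and GCLM.

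HMOX1 (ENSG00000100292, chr22:35380361-35394214, plus strand) encodes haem oxygenase 1, which breaks down haem to biliverdin, iron and carbon monoxide. HMOX1-201 (chr22:35381096-35394207) had 44 and 63 counts in EtOH and 7 and 6 in HgCl2. Both HgCl2 values lay far below both EtOH values. The count was 7.45-fold lower in HgCl2 (3.30 to 20.2), or -2.90 on the log2 scale with an interval of -4.34 to -1.72. The deposited FPKM was 6.27 in EtOH and 0.951 in HgCl2. Of the 4395 tested transcripts that averaged from 30 to under 200 counts, 22.2% were called higher and 14.2% lower. HMOX1-201 lies at the lower edge of this range of counts, where fold changes scatter more than at high counts. The other 3 transcripts of the gene had no counts. HMOX1-201 has no unshared base in GENCODE 44 although its length of 1554 bases is the one implied by the FPKM, so which of its bases carried the counts is unknown.

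NQO1 (ENSG00000181019, chr16:69706996-69726668, minus strand), which reduces quinones, had 2 and 3 counts in EtOH and 0 and 0 in HgCl2 over its 7 transcripts. Both groups lay at or under 3 counts, and no fold is given. An antisense gene, ENSG00000261602, shares 575 bases with it and had 3, 4, 0 and 0 counts. SRXN1 (ENSG00000271303, chr20:646615-653200, minus strand), sulfiredoxin, which restores oxidised peroxiredoxins, has 1 listed transcript with 0 counts in all 4 columns. Of its 2528 bases 2292 are shared with a protein-coding gene on the same strand, ENSG00000270299, which also had 0 counts. Neither gene could be compared between the groups.

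OSGIN1 (ENSG00000140961, chr16:83931311-83966332, plus strand) encodes an inhibitor of cell growth that is induced by oxidative stress. OSGIN1-205 had 1 and 2 counts in EtOH and 49 and 44 in HgCl2. The groups did not overlap and the transcript was near 0 in EtOH. The count was 34.2-fold higher in HgCl2, with a wide interval of 7.59 to 488 because of the 1.5 mean counts in EtOH. The deposited FPKM was 0.482 in EtOH and 18.7 in HgCl2. OSGIN1-205 (chr16:83953240-83954548) has 2 exons, 567 bases and no annotated coding sequence. Its 436 unshared bases, chr16:83954113-83954548, lie in an intron of 3 of the gene's 4 coding transcripts. The other 7 transcripts, all coding ones included, had 0 counts, so the difference was measured on these bases and not on the coding mRNA. The start of OSGIN1-205, which the coding transcript OSGIN1-203 shares, is the base after the promoter printed above. The neighbouring gene MLYCD, on the same strand, shares 457 exonic bases with OSGIN1 and had 5, 5, 2 and 4 counts.

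**Figure D4:**
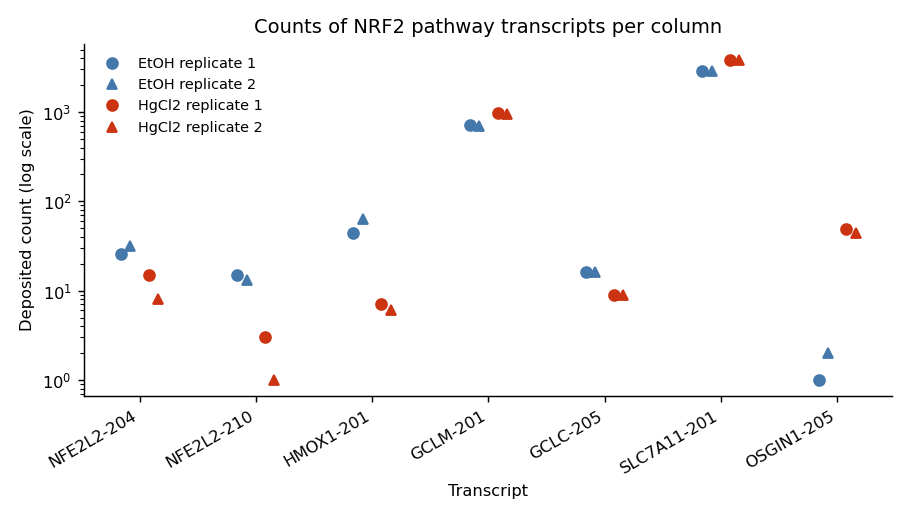
Deposited counts (vertical axis, log scale) in the 4 columns for 7 transcripts of the NRF2 pathway genes (horizontal axis), with EtOH in blue, HgCl2 in red, circles for replicate 1 and triangles for replicate 2. The columns of a group lie close together, OSGIN1-205 is at 1 and 2 in EtOH and at 49 and 44 in HgCl2, and HMOX1-201 is at 44 and 63 in EtOH and at 7 and 6 in HgCl2.

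The other genes of the pathway were taken from 5 lists of 62 genes with 653 transcripts. Summed per gene, 21 had at most 3 mean counts in both groups, and 11 of these 21 had 0 in all columns. Of the 15 genes with a summed mean of at least 100 counts in a group, 0 were called higher and 1 was called lower, SLC3A2, against 7.74% higher and 5.45% lower of 4313 genes. Their median log2 fold change was 0.18, the same as the 0.18 of the 4313 genes. Of the 653 transcripts 62 were tested, and 11 (17.7%) were called higher and 23 (37.1%) lower, near the 19.2% and 34.1% of all tested transcripts. These 19.2% and 34.1% are also the background for the calls in each list below. The lists held few tested transcripts, and the filter admits a transcript through the group in which it is high. The calls of a list are therefore no support for a response of that list.

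Among the regulators of NRF2, 15 transcripts were tested, 1 called higher and 9 lower, with a median log2 fold change of -1.34. NFE2L3, a relative of NRF2, had 131 and 129 counts in EtOH and 66 and 63 in HgCl2, 1.82-fold lower (1.34 to 2.5). GSK3B, a kinase that marks NRF2 for degradation, had mean counts of 1610.5 and 1853.5, and SQSTM1, which encodes p62 and sequesters KEAP1, 839 and 862.5. RBX1, the RING subunit of the ligase that KEAP1 serves, had 57 and 57 counts in EtOH and 5 and 7 in HgCl2, 8.60-fold lower (3.72 to 24.4). Its coding transcript RBX1-201 had 21 and 33 counts in EtOH and 2 and 0 in HgCl2. The rest lay on retained-intron transcripts, RBX1-202 with means of 18 and 5 and RBX1-203 with 12 and 0. CUL3, the scaffold of the same ligase, had 24 and 15 counts in EtOH and 44 and 37 in HgCl2. Of these, the retained-intron transcript CUL3-212 held 11 and 7 in EtOH and 38 and 33 in HgCl2. RBX1 and CUL3 fall outside the rule for named genes and were chosen after their values were seen.

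Among the glutathione and thioredoxin targets, 14 transcripts were tested, 5 called higher and 2 lower, with a median of 0.42. SLC3A2, which encodes the heavy chain that anchors xCT in the membrane, had 126 and 106 counts in EtOH and 36 and 32 in HgCl2, 3.09-fold lower (2.09 to 4.67), opposite in direction to SLC7A11. Most of its counts lay on retained-intron transcripts, SLC3A2-220 with 78 and 73 counts in EtOH and 11 and 9 in HgCl2 and SLC3A2-218 with 34 and 23 against 19 in each column, so the value does not describe its coding mRNA. PRDX6, a peroxidase, had mean counts of 2808.5 and 3085, 0.28 on the log2 scale. GSS, which completes glutathione synthesis, had 10 and 9 counts in EtOH and 48 and 52 in HgCl2, and MGST1, a membrane glutathione transferase, 6 and 7 against 34 and 33. Of the 28 transcripts of GSS 5 had a count, and of the 19 of MGST1 also 5. The summed FPKM of GSS was 1.18 in EtOH and 24.2 in HgCl2, a larger change than that of its counts. Which transcripts carried these counts was not examined, so the values need not describe coding mRNA. GSS and MGST1 were chosen after their values were seen. TXNRD1 had mean counts of 1.0 and 0.5, and GPX4, PRDX1 and GSTP1 had 0.

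Among the NADPH supply targets, 5 transcripts were tested, 0 called higher and 2 lower, with a median of -0.07. ME1, malic enzyme, had mean counts of 1760 and 1723.5, 0.11 on the log2 scale, and PGD had 268 and 227. Among the iron and haem targets, 7 transcripts were tested, 0 called higher and 5 lower, with a median of -1.41. FTL, the ferritin light chain, had 303 and 289 counts in EtOH and 136 in each HgCl2 column, 1.97-fold lower (1.60 to 2.43), with many pseudogene copies that can share its reads. FTH1, the ferritin heavy chain, had mean counts of 141 and 95.5. SLC40A1, the iron exporter ferroportin, had mean counts of 73.5 and 23.5, and SLC48A1, a haem transporter, 50.5 and 16.5. SLC40A1 and SLC48A1 were also chosen after their values were seen.

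Among the detoxification and export targets, 21 transcripts were tested, 5 called higher and 5 lower, with a median of 0.22. AKR1C1, an aldo-keto reductase, had 69 and 71 counts in EtOH and 111 and 121 in HgCl2, 1.83-fold higher (1.35 to 2.5). Its near-identical relative AKR1C2 had 67 and 56 counts in EtOH and 36 and 32 in HgCl2, and reads of this pair may have been split between them. ABCC5, an export pump, had 296 counts in each EtOH column and 406 and 398 in HgCl2, 1.5-fold higher (1.29 to 1.75), with ABCC5-205 at means of 282.5 and 352 and ABCC5-213, without annotated coding sequence, at 11.0 and 48.0. The lists thus held members in both directions.

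**Figure D5:**
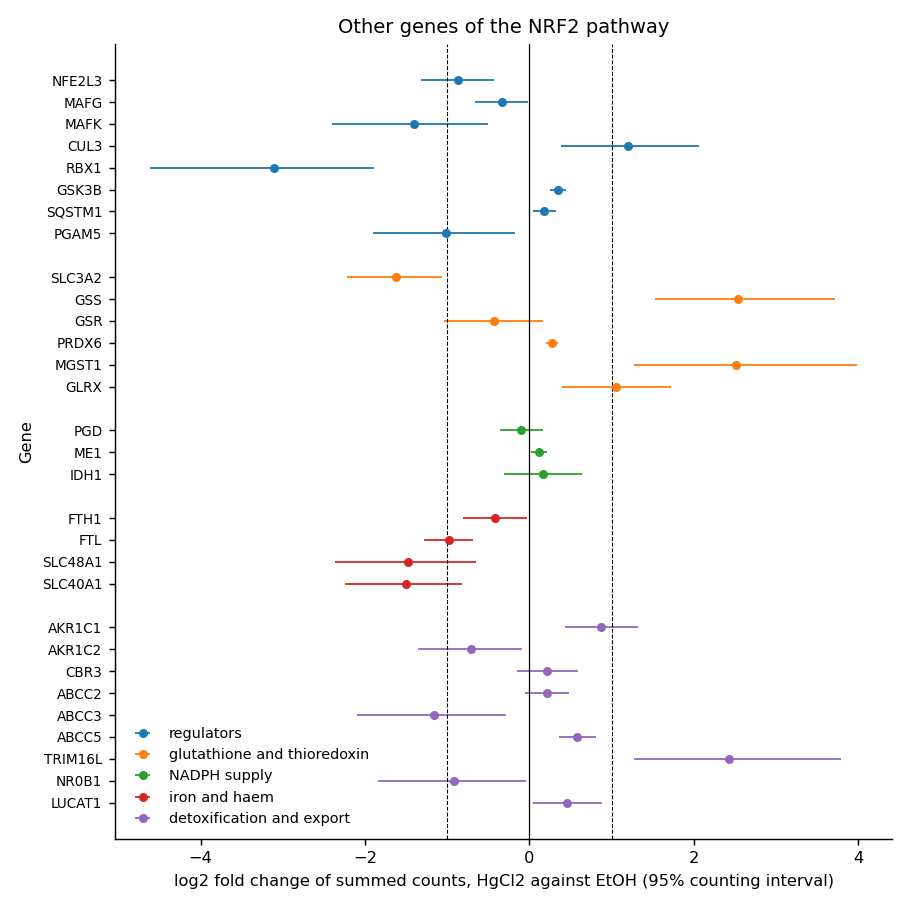
Log2 fold change of summed counts, HgCl2 against EtOH, with the 95% counting interval (horizontal axis) for the 30 other pathway genes with a mean of at least 30 counts in a group (vertical axis), coloured by list. Of the 30 genes 5 lie beyond the dashed line at 2-fold higher and 7 beyond that at 2-fold lower, and the intervals of 12 lie above 0 and of 13 below 0. The shares over all genes with such counts were not computed, so these numbers do not single out the pathway. The intervals cover counting error only.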

How the data were processed

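RNA of H1299 cells was sequenced by the authors from poly-A RNA with TruSeq libraries, 2 samples for each group, and the tables hold 1 column for each sample. Per the labels' processing notes, CASAVA, Trim Galore, STAR 2.5.4b, limma, edgeR 3.28.1 and DESeq2 1.26.0 were used by the submitters on GRCh38. The deposited counts are whole numbers of reads per transcript, without normalization, and the counting options are not given in the sources used here. The authors derived the deposited FPKM from the counts with DESeq2, which scales libraries by median ratios. Columns were assigned by their names, which carry group and replicate number.

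Transcripts were mapped to genes with GENCODE 44, where 223558 of 227368 identifiers were found. GENCODE 44 lengths equal those implied by the FPKM, within 1 base, for 93.6% of 39438 counted transcripts, and for 14 of the 18 counted transcripts of the 9 genes. Log2 fold changes came from edgeR 4.0.16 (glmQLFit, TMM, R 4.3.3) over transcripts whose mean FPKM exceeded 1 in either group. Folds and Clopper-Pearson intervals use mean counts on the same library scale, also for genes, whose transcripts were summed. Against a group at 0 counts a limit of 3 counts was used. Where both groups were at or under 3 counts, no fold is given. This fit was tested on simulated counts. Alternatives changed the filter, scaling, tool (DESeq2 1.42.0) and replicate block, or left out each column. Promoters and motifs were read with Python 3.11.15 from the RefSeq table.

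The genes and the lists were chosen with earlier results of these data known. Named in full are each of the 9 genes by its summed count, its transcript with the most counts, any transcript whose mean reached 30 counts or, past 2-fold, 10 counts, and other pathway genes with at least 100 summed counts and a 1.5-fold difference. The total counts, 4720978 to 5053120 per column, limit the precision. The paper describes the libraries of a group as biological replicates made independently, whereas their columns differed by less than sampling noise here, so intervals cover counting error only. A marker and a promoter window are not reported here.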

Additional observations from a re-analysis of the deposited data

How the results depend on the processing

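Of 161 alternative values for 13 results, 139 lay within the tolerance and 22 outside it. The tolerance was 1.5 times for counts of calls, the counting interval for genes, and for the median the SD across the 9 transcripts, so it is wide for members with few counts. Gene sums kept all transcripts under every filter, so a change of filter moved only their library scale. The 139 include such values, which do not test the filter. Requiring at least 10 counts in every column gave 963 higher and 1101 lower of all transcripts, 0 and 0 of the 9 genes' transcripts, 3 and 8 of the other pathway transcripts, and log2 fold changes of 0.41 for GCLM and 0.37 for SLC7A11. Taking any transcript with a count gave 8241 higher and 18914 lower of all, and 8 lower of the 9 genes' transcripts. The other pathway transcripts then had 25 higher and 58 lower, and SLC7A11 stood at 0.68. The deposited FPKM, with 1 FPKM added to each mean before the log2, gave 2965 higher and 3394 lower (main 3372 and 5987). On that scale 3 of the 9 genes' transcripts were higher and 2 lower, and 10 and 11 of the other pathway transcripts. GCLM stood at 0.74 and SLC7A11 at 0.71. Setting groups under 3 counts to 3, an alternative chosen after seeing the data, gave 3871 lower in all. It left 1 higher of the 9 genes' transcripts and 15 lower of the other pathway transcripts. The added 1 FPKM shrinks differences of low transcripts, and its part was not separated from that of the scale.

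Across all alternatives HMOX1 lay between -3.13 and -1.90, NFE2L2 between -1.81 and -1.07, OSGIN1 between 3.73 and 5.68, and GCLC between -0.69 and 0.54, with both signs. No transcript of these genes passed the stricter filter on counts, so their ranges say nothing about it. The ends -1.90, 3.73 and 0.54 come from the FPKM with the added 1. The median of the 9 genes' tested transcripts ran from -0.72, with any count, to 0.71. Leaving out 1 column gave 3 higher and 3 to 4 lower of the 9 genes' transcripts. The replicate numbers did not pair the columns (correlation of their deviations 0.01 over 6763 transcripts). The fit with the replicate block gave 3372 higher and 5987 lower of all transcripts and 3 and 4 of the 9 genes' transcripts. Low counts limit all members but SLC7A11-201 and GCLM-201, and how far this reflects depth or uncounted shared bases was not tested.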
